A study of Mus musculus with 3 samples.

Results

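The Scn7a fibroblasts described here are a group of valve fibroblasts that carry transcripts of Scn7a, most often with Rgs7, Fgf7, Sfrp2 or Thsd7b, and few of those that mark the bulk of the leaflet fibroblasts. They were chosen by a rule on detected genes, where detected means at least 1 unique molecular identifier (UMI, the tag that counts a single captured transcript). A cell met the rule if it had at least 2 of the 3 fibroblast genes Prrx1, Col3a1 and Dpt, had neither Egfl7, an endothelial gene, nor Ptprc, the leukocyte gene for CD45, and had more genes of list B (Scn7a, Rgs7, Fgf7, Sfrp2 and Thsd7b) than of list A (Prg4, Fmod, Pamr1, Astn1 and Erbb4). Of 16383 cells, 303 met it, a share of 1.85% (95% exact binomial interval 1.65 to 2.07). Levels are given throughout as summed UMIs of a gene per 10000 UMIs of all genes in the same cells.

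The data are droplet-based expression profiles of mouse mitral valves. The 3 samples registered with them carry the strain name B6.129-Fbn1tm2Rmz/J, which denotes the mgR allele of Fbn1, and are described in the methods as homozygous mice 12 weeks old, which carry the hypomorphic allele in every cell and make too little fibrillin-1. The labels name no treatment for them. The deposited matrix pools its libraries, and its barcodes name no mouse or genotype. The study also profiled wild-type valves and isolated nuclei, and some of the nuclei were from mgR mice treated with rapamycin. So it is not known which cells are mgR, or whether some are nuclei or come from treated mice. The matrix was therefore taken as 1 sample with no replicates, and no test between genotypes or between groups of cells was made. All intervals are 95% intervals for counting error only and say nothing of the spread between mice.

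The matrix used here lists 3264 genes, all from chromosomes 1 to 3, and in the median cell these took 15.7% of the UMIs. The median cell had 5349 UMIs (range 503 to 23127), and the median Scn7a fibroblast 6454 (range 1146 to 18677). Barcodes fall into 2 alphabetical runs of 14222 and 2161 cells, which share 11 barcodes, none of them in a Scn7a fibroblast. The Scn7a fibroblasts made up 265 cells of the first run (1.86%) and 38 of the second (1.76%).

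Interstitial cells of the mitral valve are fibroblasts that lay down and repair the layered collagen, proteoglycan and elastic matrix of the leaflets, and they are not uniform. Scn7a codes for a sodium channel that responds to extracellular sodium, Rgs7 for a regulator of G protein signalling, Fgf7 for a growth factor that acts on epithelia, Sfrp2 for a secreted inhibitor of Wnt signals and Thsd7b for a membrane protein with thrombospondin repeats. Among the list A genes, Prg4 codes for lubricin, a lubricating proteoglycan, Fmod for fibromodulin, which binds collagen fibrils, and Erbb4 for a neuregulin receptor. The comparison group throughout is the 2422 cells that passed the same fibroblast gate and had more of list A than of list B, called Prg4 fibroblasts (median 5975 UMIs). A further 350 cells had equal numbers of both and are called tied fibroblasts (median 5821 UMIs), and 338 of these had genes of both lists.

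The rule genes were used to choose the cells, so their values describe the choice and test nothing. Scn7a was detected in 95.7% of the 303 cells, Rgs7 in 55.8%, Fgf7 in 33.7%, Sfrp2 in 21.5% and Thsd7b in 17.2%. Scn7a and not Sfrp2 is thus what the cells share, and they are called after it. The gene is not theirs alone: it was also detected in 264 tied fibroblasts (75.4%) and 222 Prg4 fibroblasts (9.17%). Scn7a was found without Sfrp2 in 229 cells, together with it in 61, and Sfrp2 without Scn7a in 4, while 9 cells had neither. A single list B gene qualified 58 cells, 2 genes were found in 138, 3 in 85 and 4 or 5 in 22.

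Shares in cells that should lack these genes were low for Scn7a and Sfrp2, but not for all rule genes. In the 8803 cells with Egfl7, fewer than 2 fibroblast genes and no Ptprc (median 5344 UMIs), Scn7a was detected in 0.636% and Sfrp2 in 0.239%. In the 470 cells with Ptprc, fewer than 2 fibroblast genes and no Egfl7 (median 4851 UMIs), Scn7a was detected in 1.70%. Prg4, in contrast, was found in 7.21% and 11.1% of the Egfl7 and Ptprc cells, and Erbb4 in 18.6% and 25.7%. With the cells thinned to an equal depth of 2000 UMIs, and 7 Scn7a and 70 Prg4 fibroblasts of lower depth left out, Scn7a was found in 62.8% of the former and 5.06% of the latter, against 95.7% and 9.17% without thinning.

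**Figure D1:**
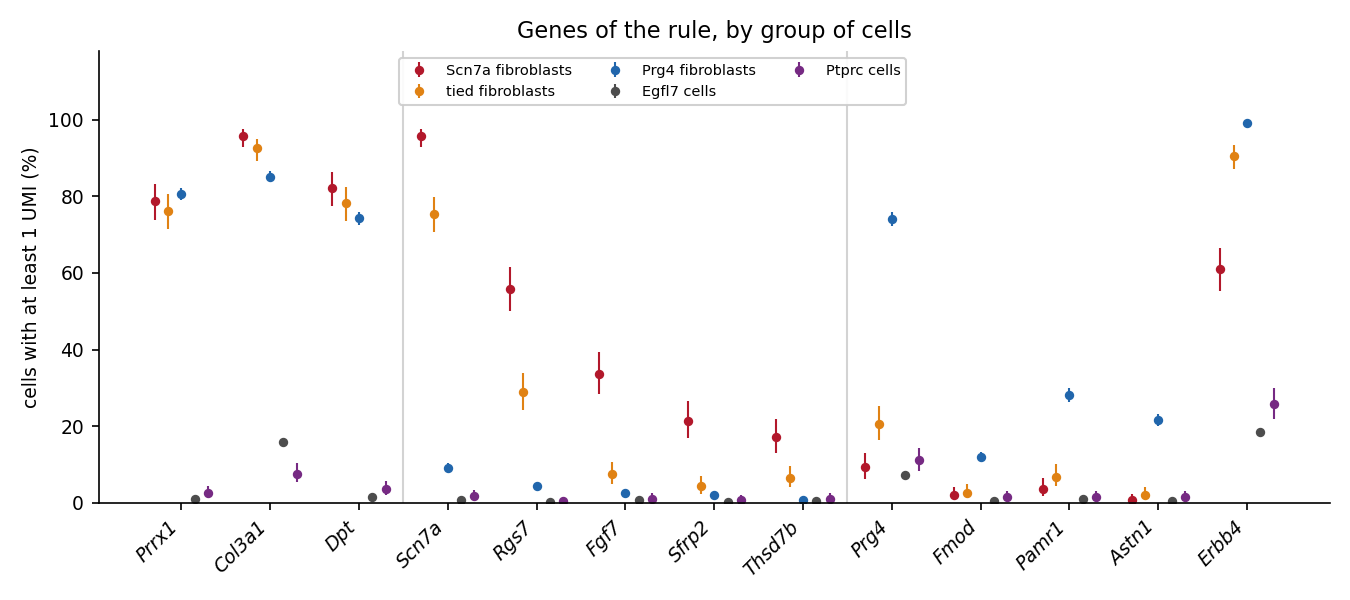
Percent of cells with at least 1 UMI (vertical axis) of each gene used by the rule other than Egfl7 and Ptprc (horizontal axis), in 5 groups of cells, with 95% exact binomial intervals as bars. The groups were chosen on these genes, so the separation is a description. Scn7a stands at 95.7% in the Scn7a fibroblasts and 9.17% in the Prg4 fibroblasts, while Erbb4 is found in 61.1% and 99.2%.

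Erbb4 is the list A gene that most often lay on both sides. It was detected in 61.1% of the Scn7a fibroblasts, with a level of 18.0, and in 99.2% of the Prg4 fibroblasts, with a level of 73.4. Prg4 itself was found in 9.24% of the Scn7a fibroblasts, 20.6% of the tied fibroblasts and 74.1% of the Prg4 fibroblasts. The rule counts Prg4 against a cell and so held the first share low. Whether that share is background was not tested. No list A gene at all was detected in 101 of the 303 cells, 1 in 174 and 2 or more in 28.

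The edge of the rule is a difference of a single gene. Just inside it lie 194 cells with 1 more gene of list B, and just outside it the 350 tied fibroblasts. Scn7a was at 5.91 just inside and at 4.24 just outside, and Rgs7 at 3.13 and 1.98. Fgf7 stood at 0.704 just inside and 0.171 just outside, Sfrp2 at 0.447 and 0.0854, and Erbb4 at 18.6 and 35.4. The 109 cells with a margin of 2 or more genes had Scn7a at 6.0, close to the cells at the edge, but Rgs7 at 5.71 and Fgf7 at 1.90.

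As fibroblasts, the chosen cells carried all gate genes, with Prrx1 and Dpt at about the level of the Prg4 fibroblasts and Col3a1 above it. Prrx1, a mesenchymal transcription factor, was at 3.38 against 3.57, Dpt, the matrix protein dermatopontin, at 3.06 against 2.91, and Col3a1, a chain of type III collagen, at 8.05 against 5.11. All 3 genes were detected in 172 of the 303 cells.

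Markers of other cells were scarce. Of 10 endothelial genes outside the rule, 10 were at least 2-fold lower than in all other cells, as were 16.9% of all 2500 genes tested. The rule left out cells with Egfl7 or Ptprc, so low endothelial and leukocyte levels beside all other cells were largely fixed by the choice. Against the Prg4 fibroblasts, which passed the same gate, 1 of the 10 was higher and 2 were lower. Another 6 were within 2-fold, and 1 had too few UMIs to be placed. Of all 2495 genes tested there, 7.01% were higher and 8.02% lower. The summed level of the 10 was 1.79, against 2.40 in the Prg4 fibroblasts and 23.4 in the Egfl7 cells, with Sox17 at 0 UMIs. The 8 leukocyte genes summed to 1.04, against 2.64 in the Prg4 fibroblasts and 35.6 in the Ptprc cells, and 146 of their 221 UMIs were of Mertk, while Fcgr1 was at 0. The 2 melanocyte genes summed to 0.0892, the 3 mural genes to 0.0141 with Rgs5 at 0, the 6 cardiomyocyte genes to 0.169 with Mybpc3 and Tnni1 at 0, the 2 adipocyte genes to 0.117 and the 9 cycling genes to 0.0610. Of the Schwann cell genes, the cadherin gene Cdh19 stood at 1.24 (1.09 to 1.40), against 0.759 in the Prg4 fibroblasts. None of the 4 epicardial markers is in the matrix. The rule removed 495 cells that had 2 or more fibroblast genes together with Egfl7 or Ptprc, and 33 of these had more of list B than of list A.

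Outside the 15 rule genes, 5 of the 12 genes with the highest ratio to the Prg4 fibroblasts were of the Ifi200 family, with Ifi205, Ifi203 and Ifi207 in front. These genes code for interferon-inducible proteins with a pyrin or HIN domain, several of which sense DNA or act on transcription. Ifi203, Ifi205, Ifi207, Ifi211 and Mndal lie near each other on the minus strand of chromosome 1. On GRCm38 (GENCODE M21) they span, in that order, 173920407 to 173942672, 174011998 to 174031810, 173723427 to 173741747, 173896345 to 173913046 and 173849126 to 173942491. They are close paralogs, and the span of Mndal overlaps those of Ifi203 and Ifi211, so the share of each gene is uncertain, and their sum is given as well. The promoter windows of these 5 genes are shown because the genes were high together. Each runs from 250 bases before to 50 bases after a RefSeq start on GRCm38.p6, 5′ to 3′ on the gene's strand, at chr1:173942443-173942742 for Ifi203, chr1:174031706-174032005 for Ifi205, chr1:173741760-173742059 for Ifi207, chr1:173912997-173913296 for Ifi211 and chr1:173880138-173880437 for Mndal. Capitals mark matches on either strand to GAAA, any 2 bases and GAAA, the core of the interferon-stimulated response element.
Ifi203: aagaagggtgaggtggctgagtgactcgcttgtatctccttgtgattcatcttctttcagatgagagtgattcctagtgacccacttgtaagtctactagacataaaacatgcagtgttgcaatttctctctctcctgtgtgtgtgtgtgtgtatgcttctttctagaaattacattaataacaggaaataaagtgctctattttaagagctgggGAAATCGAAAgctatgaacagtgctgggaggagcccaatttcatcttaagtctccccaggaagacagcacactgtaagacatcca
Ifi205: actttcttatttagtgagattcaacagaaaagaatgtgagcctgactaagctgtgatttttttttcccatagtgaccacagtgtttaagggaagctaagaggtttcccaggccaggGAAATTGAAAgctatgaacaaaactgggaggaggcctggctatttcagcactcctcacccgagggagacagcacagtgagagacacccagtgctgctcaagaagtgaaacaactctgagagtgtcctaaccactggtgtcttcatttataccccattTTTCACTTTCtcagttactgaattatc
Ifi207: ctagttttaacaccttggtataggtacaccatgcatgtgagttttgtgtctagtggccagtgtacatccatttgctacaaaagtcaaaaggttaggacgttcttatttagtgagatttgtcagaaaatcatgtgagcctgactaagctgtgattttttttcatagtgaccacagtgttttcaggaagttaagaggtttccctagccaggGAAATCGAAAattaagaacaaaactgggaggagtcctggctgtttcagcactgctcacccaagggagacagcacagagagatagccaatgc
Ifi211: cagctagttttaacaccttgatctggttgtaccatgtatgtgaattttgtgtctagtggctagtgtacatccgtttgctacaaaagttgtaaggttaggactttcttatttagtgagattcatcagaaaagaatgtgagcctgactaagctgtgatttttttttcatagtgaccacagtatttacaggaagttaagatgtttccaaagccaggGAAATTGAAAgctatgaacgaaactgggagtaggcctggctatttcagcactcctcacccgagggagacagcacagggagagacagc
Mndal: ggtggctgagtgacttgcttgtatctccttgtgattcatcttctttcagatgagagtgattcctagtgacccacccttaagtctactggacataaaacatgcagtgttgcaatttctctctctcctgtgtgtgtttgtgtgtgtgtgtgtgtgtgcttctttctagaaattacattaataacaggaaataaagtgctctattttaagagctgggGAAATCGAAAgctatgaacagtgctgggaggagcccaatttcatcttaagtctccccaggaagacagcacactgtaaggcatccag
Such a match was found in 6 of the 7 windows listed for these genes and in at least 1 window of each of the 5, against 3.44% of all 32851 RefSeq promoter windows of the same length. On the gene's own strand it began 41, 37, 36 and 35 bases before the start in Ifi207, Ifi211, Mndal and Ifi203, and 134 bases before it in Ifi205, which has another match on the opposite strand 23 to 32 bases after the start. The other Ifi203 start has none, and the other Mndal start has 1 on the opposite strand. The paralogs share much of this sequence, so the matches are not independent, and they describe letters and not binding.

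Ifi203 stood at 2.13 (1.94 to 2.34) in the Scn7a fibroblasts and at 0.113 (0.0970 to 0.131) in the Prg4 fibroblasts, a ratio of 18.9 (15.8 to 22.6). Ifi205 was at 0.390 against 0.0150, a ratio of 25.9 (16.3 to 42.6), on 83 and 24 UMIs. Mndal was at 1.47 against 0.165, Ifi207 at 0.469 against 0.0395 and Ifi211 at 0.441 against 0.0514, with ratios of 8.94, 11.9 and 8.58. All 5 were also detected in the Ptprc cells, where Ifi203 reached 4.06, Mndal 4.17 and Ifi207 4.52. Compared with all other cells together, the ratio was 19.3 (14.7 to 25.1) for Ifi205, 9.02 for Ifi211, 8.06 for Ifi203 and 4.86 for Mndal, but 1.52 (1.24 to 1.86) for Ifi207.

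The summed level of the family was 4.90 (4.61 to 5.21) in the Scn7a fibroblasts, 2.73 (2.52 to 2.96) in the tied fibroblasts, 0.384 (0.354 to 0.415) in the Prg4 fibroblasts, 0.364 (0.348 to 0.381) in the Egfl7 cells and 13.5 (13.1 to 14) in the Ptprc cells. At least 1 of the 5 genes was found in 50.2% of the Scn7a fibroblasts and 8.84% of the Prg4 fibroblasts, and in 34.8% and 4.46% after thinning to 2000 UMIs. The family was thus seen in many but not all of the cells. By run, the summed level was 4.50 (4.20 to 4.83) and 7.04 (6.17 to 7.99).

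The UMIs were unevenly spread over cells. A summed level of at least 5 was reached by 25.7% of the Scn7a fibroblasts (20.9 to 31.1) and 2.23% of the Prg4 fibroblasts (1.68 to 2.90), and at least 20 by 4.95% (15 cells) and 0.289% (7 cells). Those 15 cells, with 20.5 to 112 family UMIs per 10000, held 47.9% of the family's UMIs in the group. All 15 had Scn7a, 11 had no list A gene and 3 were from the second run. Their leukocyte marker UMIs numbered 7 over the 8 genes, a level of 0.693, against 35.6 in the Ptprc cells. Without these 15 cells, a step added after their values were seen, the summed level was 2.68 (2.46 to 2.92), Ifi203 stood at 1.02, Mndal at 0.985, Ifi211 at 0.286, Ifi205 at 0.207 and Ifi207 at 0.182, against 0.113, 0.165, 0.0514, 0.0150 and 0.0395 in the Prg4 fibroblasts.

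**Figure D2:**
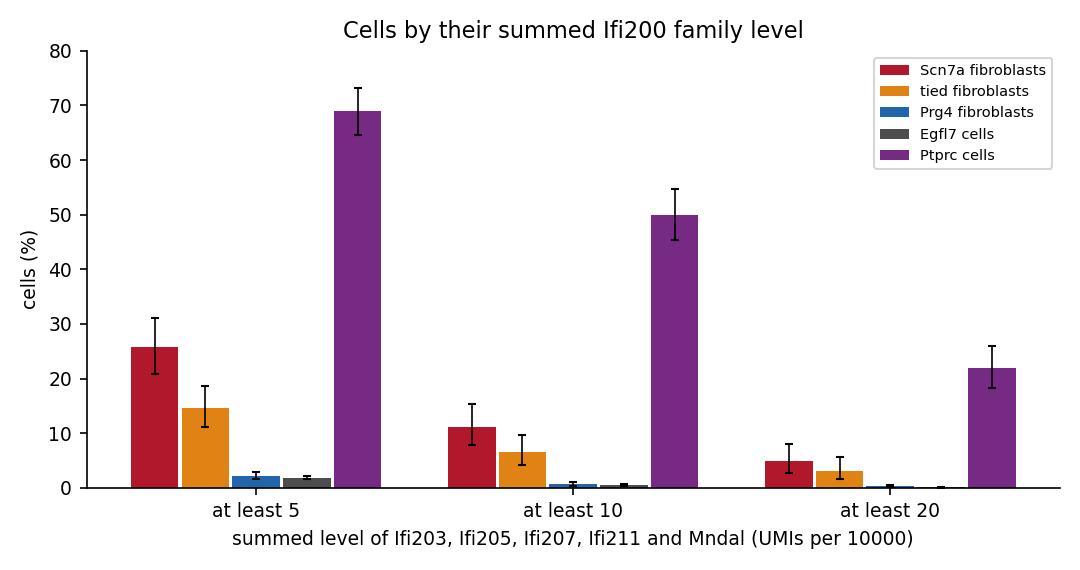
Percent of cells (vertical axis) whose summed level of Ifi203, Ifi205, Ifi207, Ifi211 and Mndal reached at least 5, 10 or 20 UMIs per 10000 (horizontal axis), in 5 groups of cells, with 95% exact binomial intervals. The Scn7a fibroblasts lie at 25.7%, 11.2% and 4.95%, between the Ptprc cells, of which 68.9% reached 5 and 21.9% reached 20, and the Prg4 fibroblasts at 2.23%, 0.619% and 0.289%.

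Other interferon-inducible genes, a list of 14 chosen after values were seen, did not all follow. Of these, 5 were at least 2-fold higher than in the Prg4 fibroblasts and 9 were within 2-fold. Sp100, a nuclear body protein, was at 1.99 (1.81 to 2.19) against 0.855 (0.810 to 0.901), and Ifi204, a further family member, at 0.174 against 0.0389. Aim2, the sensor of cytosolic DNA, stood at 0.117 against 0.0301, and Zbp1, a sensor of Z-form nucleic acid, at 0.131 against 0.0552. All 10 UMIs of Ifi213 came from 1 cell. Among those within 2-fold, Ifih1, a sensor of double-stranded RNA, was at 0.760 (0.648 to 0.887) against 0.521 (0.486 to 0.558).

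Across the whole matrix, genes with at least 100 UMIs over all cells were compared, and a gene was called where the levels differed at least 2-fold. Against all other cells, 257 of 2500 genes were called higher (10.3%) and 423 lower (16.9%), with a median ratio of 0.953. Against the Prg4 fibroblasts, 175 of 2495 were called higher (7.01%) and 200 lower (8.02%), with a median ratio of 0.971. A further 55 and 80 genes had too few UMIs to be placed on either side. Higher than both were 96 genes, and 161 were higher than all other cells but within 2-fold of the Prg4 fibroblasts. The second number counts genes shared by both kinds of fibroblast. Lower than both were 140. The 2 comparisons share their Scn7a fibroblasts, and the Prg4 fibroblasts are among all other cells.

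**Figure D3:**
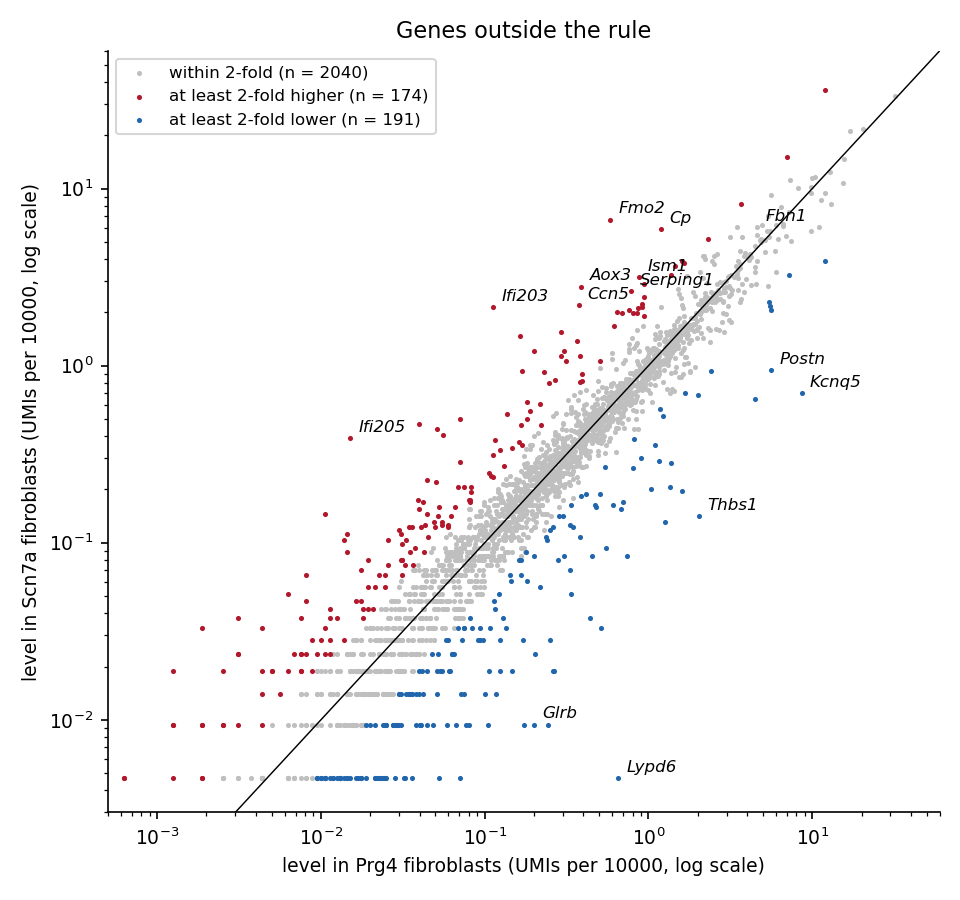
Level of each gene outside the rule in the Scn7a fibroblasts (vertical axis) against the Prg4 fibroblasts (horizontal axis), both in UMIs per 10000 on log scales, with the line of equal levels. Points are the 2405 genes placed on a side and above 0 in both groups, 174 of them at least 2-fold higher (red), 191 at least 2-fold lower (blue) and 2040 within 2-fold (grey). Fmo2 lies at 6.68 against 0.584 and Kcnq5 at 0.699 against 8.60.

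Among enzymes, Fmo2 and Aox3 stood out. Fmo2, a flavin-containing monooxygenase that oxidises nitrogen and sulfur compounds, was at 6.68 (6.34 to 7.03) in the Scn7a fibroblasts and 0.584 (0.547 to 0.623) in the Prg4 fibroblasts, a ratio of 11.4 (10.5 to 12.4), and was detected in 70.6% and 9.46% of cells. It is not a gene of these fibroblasts alone, since the Egfl7 cells had it at 5.76. Aox3, an aldehyde oxidase, was at 2.79 (2.57 to 3.03) against 0.389 (0.359 to 0.421), a ratio of 7.18, was detected in 28.7% and 7.14% of cells, and was at 0.00895 in the Egfl7 cells. Of 10 solute carriers and metabolic enzymes tested, 4 were at least 2-fold higher than in the Prg4 fibroblasts and 1 was lower, with a median ratio of 1.33. Over all 2495 genes the shares were 7.01% higher and 8.02% lower. The others on the higher side were Fmo1, at 3.66 against 1.45 (3.56 against 2.23 in the second run), and Hsd11b1, which regenerates active glucocorticoid, at 0.343 against 0.147. Ceruloplasmin, Cp, a copper-bearing ferroxidase that was named after its values were seen, was at 5.90 (5.58 to 6.24) against 1.19 (1.13 to 1.24) and detected in 76.2% and 28.0% of cells.

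Several secreted proteins were also among the named genes. Ccn5, a matricellular protein induced by Wnt, was at 2.20 (2.0 to 2.40) against 0.377 (0.348 to 0.409), a ratio of 5.82 (5.15 to 6.58), and was 14.7-fold above all other cells. Angpt4, an angiopoietin that binds the Tie2 receptor, was at 0.497 against 0.0709, a ratio of 7.02. Ism1, the secreted protein isthmin, stood at 3.16 (2.92 to 3.41) against 0.873, and Pi15, a secreted peptidase inhibitor, at 2.43 (2.23 to 2.65) against 0.942, with ratios to all other cells of 8.13 and 8.26. In the second run, however, Pi15 was at 0.95 against 0.652 in the Prg4 fibroblasts, within 2-fold. Lamc3, a laminin chain, stood at 0.408 against 0.0558, a ratio of 7.32, with a level of 0.479 in the first run and of 0.0297, from 1 UMI, in the second.

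The transcription factors Msc and Twist2 were among the named genes. Msc, the repressor musculin, was at 1.21 (1.07 to 1.37) against 0.199 (0.177 to 0.222), and 14.5-fold above all other cells. Twist2, which holds mesenchymal cells in an undifferentiated state, was also at 1.21 (1.07 to 1.37), against 0.305 (0.278 to 0.333). From a list of 24 factors in the matrix, 20 were tested, with 1 at least 2-fold higher and 4 lower than in the Prg4 fibroblasts and a median ratio of 0.975. Over all 2495 genes the shares were 7.01% higher and 8.02% lower. The 1 that was higher was Zeb2, at 15.1 (14.5 to 15.6) against 7.05 (6.92 to 7.18), a factor of mesenchymal transition that the Ptprc cells had at 23.8. Its difference was smaller in the second run, at 9.18 against 7.53. Mecom, a zinc finger factor, was at 33.4 against 32.1 and so did not separate the fibroblasts, though it was 2.56-fold above all other cells.

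An adhesion protein and an actin regulator were also at the upper end. Nfasc, the adhesion protein neurofascin, was at 0.929 (0.804 to 1.07) against 0.169, and Lmod1, an actin nucleator of smooth muscle, at 0.530 against 0.136. The predicted genes 2600014E21Rik and Gm9947 were 14.1-fold and 11.1-fold above all other cells.

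The lowest ratios to the Prg4 fibroblasts included a channel, a receptor subunit and a matricellular protein. Lypd6, a membrane-anchored protein of the Ly6 family, was at 0.00469 from 1 UMI, against 0.651 (0.612 to 0.692). Kcnq5, a voltage-gated potassium channel, was at 0.699 (0.592 to 0.821) against 8.60 (8.46 to 8.74), a ratio of 0.0813, and Glrb, a glycine receptor subunit, at 0.00939 against 0.201. Thbs1, the matricellular protein thrombospondin 1, stood at 0.141 (0.0950 to 0.201) against 2.02 (1.95 to 2.09), a ratio of 0.0697. Rp1, Nebl, Bbox1 and Pak7 had ratios of 0.0384, 0.0851, 0.112 and 0.113, and C030034L19Rik, Rapgef4os1, Gm14223 and Gm16070 filled the rest of the 12 lowest. Against all other cells the 10 lowest were Inpp5d, Nfatc2, Pkn3, F11r, Lypd6, Ppp1r16b, Gata5, Ccm2l, Xirp2 and Ptprt, of which Inpp5d, the leukocyte phosphatase SHIP1, was at 0.00939 here and 13.3 in the Ptprc cells.

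Of 21 collagen genes listed, 9 are in the matrix and 8 were tested: 1 was at least 2-fold higher, 1 lower and 6 within 2-fold of the Prg4 fibroblasts, as were 2040 of the 2495 genes tested in all. Col4a4, a basement membrane chain, was at 1.97 (1.79 to 2.17) against 0.801 (0.757 to 0.846), while Col9a1, a cartilage-type chain, was at 0.0235 against 0.203. Col5a2 was at 6.05 (5.72 to 6.39) against 11 (10.8 to 11.1), Col6a3 at 4.36 against 5.16 and Col5a1 at 3.10 against 3.96.

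Of 21 other matrix genes tested, 2 were higher, 3 lower and 16 within 2-fold of the Prg4 fibroblasts, with a median ratio of 1.13. Over all 2495 genes the shares were 7.01% higher and 8.02% lower. Postn, periostin, a matricellular protein of developing valves, was at 0.948 (0.822 to 1.09) against 5.59 (5.47 to 5.71), and Cd44, the hyaluronan receptor, at 0.939 against 2.42. The third lower gene was Thbs1. Those on the higher side were Adamtsl2, which binds fibrillin, at 1.91 (1.73 to 2.11) against 0.937 (0.890 to 0.986), and Sulf2, which trims heparan sulfate, at 1.07 against 0.313. Fbn1, the gene altered in the mgR mice, was at 6.07 (5.74 to 6.41) against 4.61 (4.50 to 4.71) and so within 2-fold, and was 2.22-fold above all other cells. Which of these cells carry the mgR allele is not known, so its level is no check of the genotype. The mgR insertion lowers transcription of Fbn1, and the levels here average over whatever genotypes the matrix holds.

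Of 6 Wnt genes tested, 2 were higher and 1 lower than in the Prg4 fibroblasts. The shares over all 2495 genes, to be set beside each list here, were 7.01% higher and 8.02% lower. Beside Ccn5, Lrp4, a co-receptor that binds sclerostin, was higher, at 2.15 (1.96 to 2.36) against 0.910 (0.864 to 0.958), and Frzb, a secreted Wnt inhibitor related to Sfrp2, was lower, at 0.521 (0.429 to 0.627) against 1.23 (1.18 to 1.28), with 0.624 against 0.871 in the second run. In the TGF-beta and BMP list, 0 of 11 genes were higher and 1 was lower, the ligand gene Bmp2, at 0.0375 against 0.129. Tgfb2, a TGF-beta ligand, was at 1.18 (1.04 to 1.33) against 1.01 (0.964 to 1.06). For 8 genes of PI3K, AKT and mTOR signalling, 0 were higher and 1, Inpp5d, was lower, with a median ratio of 0.916.

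Receptors and growth factors lay on both sides. Of 13 tested, 2 were higher and 3 lower than in the Prg4 fibroblasts, and 3 had too few UMIs to be placed. Over all 2495 genes the shares were 7.01% higher and 8.02% lower. Il1rl2, the interleukin-36 receptor, was at 0.286 (0.219 to 0.368) against 0.0702, and Il6ra, the interleukin-6 receptor, at 0.380 against 0.116. Il1r1, the interleukin-1 receptor, was at 6.04 (5.71 to 6.38) against 3.47 (3.38 to 3.56), which is within 2-fold, and 3.01-fold above all other cells. Pdgfc, a growth factor for mesenchymal cells, was at 0.0939 against 0.551, and Bdnf and Angptl1 were lower on 4 and 2 UMIs.

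Among proteases and their inhibitors, 4 of 15 tested were higher, 4 lower and 6 within 2-fold. Over all 2495 genes the shares were 7.01% higher and 8.02% lower. Serping1, the inhibitor of complement C1 and of kallikrein, was at 2.63 (2.42 to 2.86) against 0.784 (0.741 to 0.829), a ratio of 3.35 (3.03 to 3.71), and was detected in 73.3% and 30.6% of cells. Tfpi, which inhibits tissue factor, was at 0.465 against 0.167, Serpine2, which inhibits thrombin, at 0.465 against 0.219, and the metalloprotease Adam33 at 0.225 against 0.0445. Fap, fibroblast activation protein, was at 4.17 against 2.50.

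In the complement, prostaglandin and inflammatory list, 2 of 11 genes were higher and 2 lower, against 7.01% and 8.02% of all 2495 genes. Cd55, which shields cells from complement, was at 0.826 (0.708 to 0.957) against 0.269 (0.244 to 0.296), but in the second run at 0.356 against 0.336. Ptges, a synthase of prostaglandin E2, was at 0.160 against 0.0658, from 34 UMIs, but at 0.0297 against 0.0755 in the second run. Ptgis, the prostacyclin synthase, was lower, at 2.17 (1.98 to 2.38) against 5.51 (5.40 to 5.63).

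Besides Scn7a, 17 ion channel genes are in the matrix. Of 12 tested, 2 were higher than in the Prg4 fibroblasts, 1 was lower and 8 were within 2-fold. Over all 2495 genes the shares were 7.01% higher and 8.02% lower. Cacnb4, a calcium channel subunit, was at 0.920 (0.796 to 1.06) against 0.231 (0.208 to 0.256), with 0.713 against 0.494 in the second run, and Kcnip3, a partner of potassium channels, at 0.192 against 0.0828, though the second run had Kcnip3 at 0.0891 against 0.172. Kcnt2, a sodium-activated potassium channel, was at 14.7 against 15.6. The sodium channel genes Scn3a and Scn9a were at 0 UMIs, which allows a level of up to 0.0141.

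Integrins had 0 of 5 genes higher and 2 lower. The shares over all 2495 genes, to be set beside each list here, were 7.01% higher and 8.02% lower. Itga10, a collagen-binding chain, was at 0.202 (0.146 to 0.272) against 1.04 (0.988 to 1.09), and Itga6, a laminin-binding chain, at 0.0610 against 0.181. Itga8, which binds nephronectin and fibronectin, was at 4.14 (3.88 to 4.43) against 2.15 (2.08 to 2.22), a ratio of 1.93, and 5.96-fold above all other cells. Guidance and adhesion genes gave 3 higher and 1 lower of 17, RGS genes other than Rgs7 gave 0 and 2 of 7, and immediate-early and stress genes gave 1 and 2 of 8. The last list was summed at 0.620 in the Scn7a fibroblasts and 0.763 in the Prg4 fibroblasts.

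How many genes outside the rule a cell carried was counted for 6 of them, picked after they were seen to be high here: Ccn5, Aox3, Msc, Twist2, Cp and Fmo2. At least 3 of the 6 were detected in 62.4% of the Scn7a fibroblasts, 34.3% of the tied fibroblasts, 5.12% of the Prg4 fibroblasts and 0.125% of the Egfl7 cells. After thinning to 2000 UMIs the shares were 29.1%, 14.3%, 1.57% and 0.0243%. The choice of the genes fixed the order of the Scn7a and Prg4 fibroblasts, so the shares are a description.

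The 3075 fibroblast-gate cells were also clustered on genes other than the 15 of the rule. Cluster 1 held 872 cells, and 285 of the 303 Scn7a fibroblasts (94.1%) were in it, with 340 Prg4 and 247 tied fibroblasts. Cluster 2 held 2164 cells, of which 2055 were Prg4 fibroblasts and 15 were Scn7a fibroblasts, and cluster 3 held 39 cells. The Scn7a fibroblasts thus lay almost wholly in cluster 1 but made up 32.7% of it.

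The rule genes did not shape the clusters but differed between them. Lists A and B were chosen with earlier results of these data known, so this difference is a description and no test. Scn7a stood at 4.37 in cluster 1 and 0.253 in cluster 2, Rgs7 at 2.48 and 0.213, Fgf7 at 0.480 and 0.0740, Sfrp2 at 0.250 and 0.0540, and Thsd7b at 0.340 and 0.0441. Of list A, Prg4 was at 2.67 and 18.3 and Erbb4 at 30.4 and 78.0. The Prg4 fibroblasts that fell in cluster 1 had Scn7a at 2.30 (2.10 to 2.51), against 0.155 (0.135 to 0.178) in those of cluster 2, and Ccn5 at 1.06 against 0.270. The tied fibroblasts of cluster 1 had Aox3 at 2.46, Cp at 5.66 and Msc at 1.10, against 2.91, 5.97 and 1.22 in the Scn7a fibroblasts there, but Ccn5 at 1.03 against 2.25, Ifi203 at 0.786 against 1.59 and Ifi205 at 0.0990 against 0.350. Among the rule genes they had Scn7a at 5.01 against 6.09, Fgf7 at 0.124 against 1.19 and Sfrp2 at 0.0866 against 0.528. Of cluster 1 the rule thus takes in only a part. Over all cells of each cluster, Ifi203 was at 0.976 in cluster 1 and 0.181 in cluster 2, and Mndal at 0.991 and 0.186. Within the Scn7a fibroblasts alone the order was the other way. In the 15 Scn7a fibroblasts of cluster 2, Ifi203 was at 16.9 (14.2 to 20.1) and Mndal at 8.54 (6.60 to 10.9). The 131 UMIs of Ifi203 there came from 5 cells. The tied fibroblasts of cluster 2 had Ifi203 at 1.26.

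**Figure D4:**
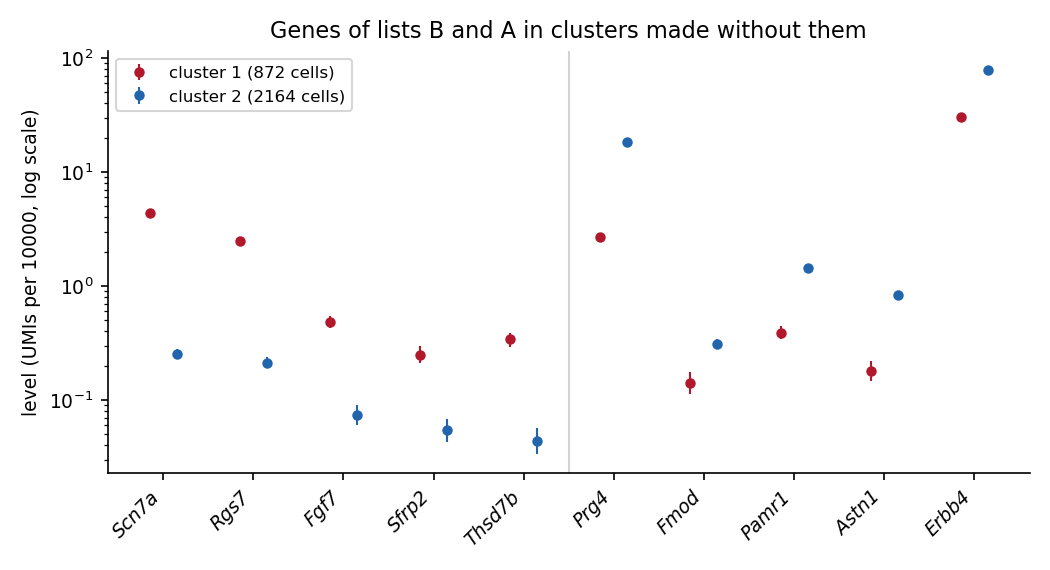
Level of the 5 list B genes (left) and the 5 list A genes (right) in UMIs per 10000 on a log scale, in cluster 1 (872 cells) and cluster 2 (2164 cells), with 95% exact Poisson intervals. The clusters were made without these genes, but the lists were chosen with earlier results of these data known, so the separation is a description. Every list B gene is higher in cluster 1, with Scn7a at 4.37 against 0.253, and every list A gene is higher in cluster 2, with Prg4 at 18.3 against 2.67.

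Within the Scn7a fibroblasts, the 65 cells with Sfrp2 (median 6785 UMIs) were compared with the 238 without it (median 6348 UMIs), since only 4 cells had Sfrp2 without Scn7a. Sfrp2 was found in 17 of the 38 cells of the second run (44.7%) and 48 of the 265 of the first (18.1%), so this split is mixed with the barcode run. Ecrg4, a secreted peptide precursor, was at 0.589 (0.395 to 0.846) with Sfrp2 and 0.153 (0.0987 to 0.225) without, on 29 and 25 UMIs. Within the runs, a comparison added after these values were seen, it was at 0.174 (0.0637 to 0.378) against 0.104 (0.0580 to 0.171) in the first and 1.57 (0.994 to 2.35) against 0.526 (0.252 to 0.967) in the second. Sdc4, the heparan sulfate proteoglycan syndecan 4, was at 0.406 against 0.122, and Dpp7, a lysosomal dipeptidase, at 0.203 against 0.0427. Lower with Sfrp2 were Kcnb2, a potassium channel, at 0.102 against 0.800, and Ifi207 at 0.163 against 0.562. In the second run Kcnb2 was at 0.341 against 0.421, from 5 and 8 UMIs, and Dpp7 had 1 UMI on each side. Ano3 had the highest ratio, 43.3, but its 26 and 2 UMIs came from 4 cells in all. Other genes at the ends were 4921511C10Rik and Snrpe on the higher side and Kif26b, Map1a and Gm13986 on the lower. Each of the genes named here has at most 29 UMIs in the cells with Sfrp2.

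The 2 barcode runs gave the same side of the Prg4 fibroblasts for all 24 named genes of that comparison. These genes were picked on the pooled cells, 265 of 303 from the first run, so the side there was largely fixed by the choice. Lamc3 had 1 UMI against 0 in the second run, so its side there rests on the bound at 3 UMIs. In the second run, with 38 Scn7a fibroblasts, 11 of the 12 highest and 10 of the 12 lowest were still at least 2-fold apart. Fmo2 was at 6.32 in the first run and 8.61 in the second, Ccn5 at 2.10 and 2.70, and Ifi203 at 2.06 and 2.49. Aox3 differed more, at 2.18 (1.97 to 2.41) and 6.06 (5.25 to 6.95), as it did in the Prg4 fibroblasts, at 0.337 and 0.906. First-run cells had Fbn1 at 6.73 (6.35 to 7.12) and second-run cells at 2.55 (2.04 to 3.15), and in the Prg4 fibroblasts at 4.87 and 2.04. The part of mouse, genotype or library in these differences was not tested, since the runs carry no label.

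**Figure D5:**
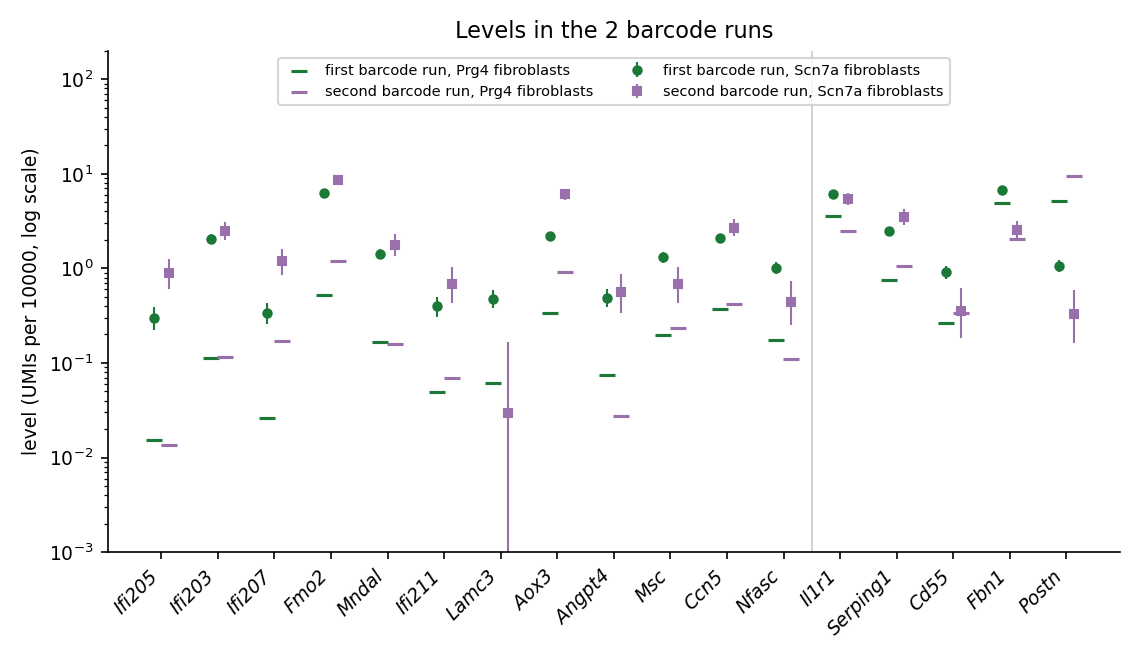
Level of 17 genes in the Scn7a fibroblasts (points with 95% exact Poisson intervals) and in the Prg4 fibroblasts (dashes), in UMIs per 10000 on a log scale, for the first (green) and second (purple) barcode run. The 12 genes left of the line are those with the highest ratio to the Prg4 fibroblasts. Lamc3 in the second run rests on 1 UMI, and Cd55 is at 0.914 against 0.262 in the first run but 0.356 against 0.336 in the second.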

How the data were processed

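The authors processed reads with Cell Ranger (7.1.0) against mm10, per the submitters' processing notes, and filtered, normalized and pooled cells in Seurat, per the methods. The deposited values are on a natural log scale, ln(1 + UMIs per 10000 of the cell), so the authors' unit is not a count. Whole UMIs and cell totals were recovered from them for 100% of values above 0 and 100% of cells (tolerance 0.02), and no count model was fitted to 1 pooled sample. Of 3265 listed genes, 1 with empty values was left out. No column of other samples was left unused (0). No doublet caller was run.

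Levels are summed UMIs per 10000 with exact Poisson intervals, shares have exact binomial intervals and ratios exact conditional intervals (95%, scipy 1.17.1). Against a group at 0 UMIs a ratio was a bound at 3 UMIs. Named genes were the 15 highest and 10 lowest ratios to all other cells, the 12 highest and 12 lowest to the Prg4 fibroblasts and 6 each way within the Scn7a fibroblasts, with at least 100 UMIs over all cells and a level of at least 0.2 in the higher group, and members of the 15 gene lists and 11 marker lists. The planned comparison of Scn7a-only with Sfrp2-only cells was replaced by cells with and without Sfrp2. Clusters used 2000 variable genes without the rule genes, scaled and clipped at 10, 30 principal components, 15 neighbours and Leiden resolution 0.3 (scanpy 1.11.5, igraph 0.11.9, seed 1), with no batch correction. For shares at equal depth each cell was thinned to 2000 UMIs. All steps ran in Python 3.11.15 with numpy 2.4.6 and pandas 2.3.3, and plots were drawn with matplotlib 3.10.9. The steps were tested on simulated data. The rule, the members and the lists were chosen with earlier results of these data known. Alternatives changed the rule, the UMI minimum, the depth, the scaling per cell, the run and the clustering. Some genes that the naming rule or the lists include are not reported here.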

Additional observations from a re-analysis of the deposited data

How the results depend on the processing

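The share of cells that met the rule depended on its terms: it was 1.85% as reported, 0.665% with at least 2 more genes of list B than of list A, 1.05% with all 3 fibroblast genes, 0.867% after thinning to 2000 UMIs, 0.732% without Scn7a in list B, and 3.78% (620 cells) without Erbb4 in list A, which was added after seeing the data. Counts of genes moved with the minimum of UMIs. With no minimum beyond 1 UMI in each group, 405 genes were higher than in all other cells and 303 higher than in the Prg4 fibroblasts, and with at least 500 UMIs, 154 and 90 were higher and 111 lower than in the Prg4 fibroblasts. The planned cluster measure, the share of the cells in clusters where they outnumber the Prg4 fibroblasts, was 0% as run, 92.7% at Leiden resolution 0.6 and 93.2% in cells of at least 2000 UMIs. The share in the cluster that held most of them, added after seeing the data, was 94.1%, 99.0% at resolution 0.1 and 100% in the second run alone, but the last 2 say nothing of stability, since that cluster held 3036 of the 3075 cells at resolution 0.1 and the second run gave 1 cluster. Of 686 values of 49 named gene comparisons under 14 alternatives, 530 stayed within the interval of the reported ratio. Another 156 fell outside it, larger or smaller, on the same side of 1, and 0 reversed. The alternatives that changed only the minimum of UMIs leave every ratio as it was. Their values are among the 530 and could neither move nor reverse. No paired analysis was possible because the barcodes carry no replicate number. The lists hold only genes of 3 chromosomes, and a gene at 0 UMIs in the 303 cells may have a level of up to 0.0141.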

Other observations

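Npas2 and Per2, genes of the circadian clock, were at different levels in the barcode runs. In the Scn7a fibroblasts Npas2, a partner of the clock activator BMAL1, was at 1.88 (1.68 to 2.09) in the first run and 0.0297 in the second, from 337 UMIs and 1 UMI, while Per2, a clock repressor, was at 0.479 (0.383 to 0.592) and 1.54 (1.15 to 2.02). The Prg4 fibroblasts had Npas2 at 0.935 and 0.0137 and Per2 at 0.380 and 1.54, and the Egfl7 cells had Npas2 at 0.377 and 0.0428 and Per2 at 0.471 and 1.30. In the tied fibroblasts Npas2 was at 1.44 and 0.0382 and Per2 at 0.489 and 1.41. The Ptprc cells went the other way for Npas2, at 0.0596 and 0.133 from 10 UMIs in each run, and had Per2 at 0.256 and 0.519. Cry2, another clock repressor, was at 0.725 and 0.564 in the Scn7a fibroblasts. The part of collection time, genotype or library was not tested, since the runs carry no label.

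Ecrg4 differed between the runs in the Scn7a fibroblasts, at 0.117 (0.0725 to 0.179) in the first and 0.980 (0.674 to 1.38) in the second, while in the Prg4 fibroblasts it was at 0.168 and 0.144. These genes were chosen after their values were seen.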
